A study of Homo sapiens and Mus musculus with 30 samples.

Results

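Tgfbi, Thbs1, Ctgf, Cyr61 and Ankrd1 are 5 genes that answer to transforming growth factor beta (TGF-beta) or to the transcriptional co-activators YAP and TAZ, and they were followed across graded amounts of LIN28B. They were taken by symbol from the NIH3T3 table, where each of the 5 matched 1 of 41128 genes, 21042 of which were above 0 in at least 1 library. The set was chosen by measured values, the RPKM of Tgfbi and Thbs1 across the levels in NIH3T3, so the NIH3T3 values of all 5 are given as a description and carry no test. Their human counterparts CTGF, CYR61 and ANKRD1 are among the 11342 genes of the HEK293A table and were tested there, while TGFBI and THBS1 are not in that table.

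In TGF-beta signalling a secreted ligand is held latent in the matrix, is set free, and binds a pair of receptor kinases that phosphorylate SMAD2 and SMAD3, which enter the nucleus with SMAD4. In the Hippo pathway the kinases LATS1 and LATS2 hold YAP and its relative TAZ (gene Wwtr1) in the cytoplasm. Released YAP and TAZ bind TEAD factors on DNA. Fibroblasts use both pathways when they spread on a matrix, contract and lay down collagen. Tgfbi encodes a secreted matrix protein with fasciclin domains that binds integrins and is named for its induction by TGF-beta. Thbs1 encodes thrombospondin 1, a secreted matrix glycoprotein that can activate latent TGF-beta. Ctgf (also Ccn2) and Cyr61 (also Ccn1) encode secreted matrix-associated proteins of the CCN family, and Ankrd1 encodes a muscle ankyrin repeat protein of nucleus and sarcomere. Ctgf, Cyr61 and Ankrd1 are the usual readouts of YAP and TAZ activity.

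LIN28B is an RNA-binding protein that keeps let-7 microRNAs from maturing and also attaches to messenger RNAs directly. NIH3T3, a mouse embryonic fibroblast line, and HEK293A, a human embryonic kidney line, were compared at 5 amounts of it, from X0, described by the series design as the knockout, through X1, X2 and X3 to X4, the highest. LIN28B transgenes were switched on with doxycycline at 10 ng/ml. The sources used here do not say whether X0 cells carried a transgene or received doxycycline, nor how many clones were used. Each line and level had 1 library of total RNA and 1 of polysome RNA, the RNA bound by ribosomes, and HEK293A X0 cells transfected with 10 nM let-7a gave 1 more of each. These 22 of the 30 libraries of the series were used for the genes described here. The design text speaks of replicates, but the tables hold 1 value per level and fraction.

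Expression is given in RPKM, reads scaled by gene length and library depth. Reads recovered from the deposited values came to 16071673 to 25002825 per NIH3T3 total RNA library and 15929653 to 20818902 per NIH3T3 polysome library. In HEK293A they came to 37654587 to 56002258 for total RNA and 9085007 to 14592558 for polysome RNA. LIN28B itself read 3.60, 23.0, 33.4, 81.2 and 208 RPKM in HEK293A total RNA at X0, X1, X2, X3 and X4. Mouse Lin28b held 1, 1, 1, 9 and 42 reads in NIH3T3 total RNA at the same levels, which shows the order of X3 and X4 but not that of X0, X1 and X2, and the species of the transgene is not given. The NIH3T3 libraries carried 9 of 11 fibroblast markers at a mean of at least 1 RPKM (Fap and Lum were the exceptions), 0 of 6 epithelial, 0 of 5 endothelial and 1 of 5 blood cell markers. The blood cell marker at that level was Cd68, at 8.18 to 11.1 RPKM in total RNA of X1 to X4 against 5.06 RPKM in X0, while Ptprc and Hbb-bs were at 0 in every library. Its part in the results was not tested.

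YAP and TAZ reach DNA through TEAD factors, whose core motif GGAATG is written in capitals in the human promoters that follow, shown because CTGF and ANKRD1 are the YAP targets of the set with an entry and THBS1 is the matrix gene that holds the motif. Each run is the 250 bases before the RefSeq start of the gene on GRCh38.p14, 5′ to 3′ along the gene.
CTGF (chr6:131951373-131951622, minus strand): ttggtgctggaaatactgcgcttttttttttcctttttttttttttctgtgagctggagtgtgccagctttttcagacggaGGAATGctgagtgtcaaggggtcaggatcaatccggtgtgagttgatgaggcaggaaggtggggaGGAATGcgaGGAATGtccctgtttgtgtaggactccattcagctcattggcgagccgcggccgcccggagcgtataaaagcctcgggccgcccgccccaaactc
ANKRD1 (chr10:90921088-90921337, minus strand): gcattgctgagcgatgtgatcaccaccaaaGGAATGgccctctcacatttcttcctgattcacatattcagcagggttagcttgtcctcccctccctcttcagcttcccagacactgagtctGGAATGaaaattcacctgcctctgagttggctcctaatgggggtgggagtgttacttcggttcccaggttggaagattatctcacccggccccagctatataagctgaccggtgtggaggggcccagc
THBS1 (chr15:39580829-39581078, plus strand): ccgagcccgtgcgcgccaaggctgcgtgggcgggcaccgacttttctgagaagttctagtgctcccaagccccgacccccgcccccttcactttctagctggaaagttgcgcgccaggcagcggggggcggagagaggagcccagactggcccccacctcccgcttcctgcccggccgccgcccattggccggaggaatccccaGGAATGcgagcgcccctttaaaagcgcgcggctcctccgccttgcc
GGAATG, or its reverse complement CATTCC, occurs 3 times in the CTGF run, starting 169, 104 and 95 bases before the start. It occurs 2 times in the ANKRD1 run, at 220 and 128 bases, and 1 time in the THBS1 run, at 46 bases. In the 250 bases before TGFBI it does not occur. Of 35116 human promoter windows of this length, 11.9% held it at least 1 time, 0.940% at least 2 times and 0.0826% at least 3 times. The SMAD motif searched, CAGACA (reverse complement TGTCTG), occurs 1 time, in ANKRD1, and in 13.6% of all windows. The shorter CAGAC, which the CTGF and THBS1 runs also hold, was not counted. These are matches of letters, and no CYR61 promoter was printed.

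Tgfbi messenger RNA was nearly absent from NIH3T3 cells at the highest LIN28B level. Total RNA held 51.95, 3.29, 3.28, 2.19 and 0.153 RPKM of Tgfbi at X0, X1, X2, X3 and X4. Polysome RNA held 30.3, 2.14, 2.39, 1.96 and 0.422 RPKM at the same levels. X0 thus stood far above the other levels in both fractions, X1, X2 and X3 lay close together, and X4 stood apart again at the bottom, on 9 total and 18 polysome reads. In bulk RNA, fewer cells with the messenger RNA and less of it per cell cannot be told apart.

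The drop came in a pair of steps with a plateau between them. Tgfbi total RNA was 15.8-fold lower at X1 than at X0 (95% counting interval 13.4 to 18.7). X2 differed from X1 by a factor of 0.996 (0.787 to 1.26), and X3 was 1.50-fold lower than X2 (1.16 to 1.93). X4 was 14.3-fold lower than X3 (7.28 to 32.1) and 339.9-fold lower than X0 (179 to 744). In polysome RNA the same steps were 14.1-fold lower at X1 than at X0 (11.5 to 17.6) and 4.64-fold lower at X4 than at X3 (2.78 to 8.17), and X4 was 71.8-fold lower than X0 (45.3 to 121.5). All such intervals cover counting error only, not the spread between cultures, which 1 library per level cannot show.

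NIH3T3 genes were ranked by their difference from X0 on the log2(RPKM + 0.5) scale. Among the 7017 that reached 5 RPKM of total RNA at any level, Tgfbi was lowest at each of X1, X2, X3 and X4. In polysome RNA it was the second lowest of 8171 genes at each of the 4 levels. Between 1 and 4 genes were lower than X0 by 10-fold or more at any 1 level and fraction, on the log2(RPKM + 0.5) scale. These ranks use the values by which Tgfbi was picked. Cyba, which encodes the p22phox subunit of NADPH oxidases, came next in total RNA, with 33.2, 3.27, 4.43, 2.97 and 0.300 RPKM from X0 to X4. Gsdmd, the pore-forming gasdermin D, followed with 8.49, 0.875, 0.771, 0.620 and 0 RPKM. Both were named after their values were seen, and both read between 7.30% and 13.4% of their X0 level at X1, X2 and X3, where Tgfbi read 4.21% to 6.33%. At X4, without the added 0.5 RPKM, total RNA stood at 0% of X0 for Gsdmd, 0.294% for Tgfbi and 0.904% for Cyba. In polysome RNA these were 0.599%, 1.39% and 1.49%. By plain percentage Gsdmd was thus below Tgfbi at X4 in both fractions, on 0 total and 3 polysome reads.

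Thbs1 went the other way. Its total RNA read 12.6, 20.1, 21.8, 42.8 and 48.8 RPKM at X0, X1, X2, X3 and X4, with X0 lowest and X4 highest. Its polysome RNA read 15.1, 23.1, 40.5, 66.0 and 65.8 RPKM, with X3 and X4 level at the top. Thbs1 was therefore 3.86-fold higher at X4 than at X0 in total RNA (3.67 to 4.06) and 4.37-fold higher in polysome RNA (4.15 to 4.60).

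The fractions did not climb at the same levels. In total RNA Thbs1 was 1.08-fold higher at X2 than at X1 (1.02 to 1.15) and 1.97-fold higher at X3 than at X2 (1.87 to 2.07). In polysome RNA the difference between X2 and X1 was already 1.75-fold (1.66 to 1.84), followed by 1.63-fold between X3 and X2 (1.57 to 1.69). At the top, X4 exceeded X3 by 1.14-fold in total RNA (1.10 to 1.18), and in polysome RNA by a factor of 0.996 (0.963 to 1.03). At X4, 35 of the 7017 genes stood further above X0 than Thbs1 in total RNA, and 17 of 8171 in polysome RNA. Thbs1, too, was picked by such values, so its ranks are description only.

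Ctgf was lower at every level above X0, with little difference among X1, X2, X3 and X4. Total RNA gave 31.9, 18.1, 18.2, 20.1 and 20.5 RPKM from X0 to X4, and polysome RNA gave 62.7, 30.5, 29.6, 31.8 and 31.8 RPKM. The 4 higher levels spanned a narrow range in each fraction, and X0 lay outside it. X1 was 1.76-fold lower than X0 in total RNA (1.63 to 1.91) and 2.05-fold lower in polysome RNA (1.93 to 2.19).

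Ankrd1 was lower at X1 than at X0 as well, by 2.65-fold in total RNA (2.12 to 3.33) and 2.86-fold in polysome RNA (2.47 to 3.33), and higher again at X4. Its total RNA read 8.72, 3.29, 2.96, 3.83 and 4.51 RPKM at X0, X1, X2, X3 and X4, with X2 lowest. Its polysome RNA read 22.4, 7.84, 9.55, 15.3 and 16.0 RPKM, with X1 lowest. X4 exceeded X1 by 1.37-fold in total RNA (1.07 to 1.77) and by 2.05-fold in polysome RNA (1.74 to 2.41). Even so, X4 was 1.93-fold below X0 in total RNA (1.61 to 2.33) and 1.40-fold below it in polysome RNA (1.25 to 1.57).

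Cyr61, the third YAP target of the set, was higher and not lower at the top levels. Its total RNA read 26.5, 29.3, 32.9, 41.1 and 47.3 RPKM at X0, X1, X2, X3 and X4, each level above the one before it. Its polysome RNA stayed between 41.8 and 44.2 RPKM over X0, X1 and X2 and then read 56.8 RPKM at X3 and 67.6 RPKM at X4. X4 was 1.78-fold above X0 in total RNA (1.67 to 1.91) and 1.53-fold above it in polysome RNA (1.44 to 1.63). The 3 YAP readouts thus did not move as a group, since Ctgf and Ankrd1 were below their X0 level at X4 and Cyr61 was above it.

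**Figure D1:**
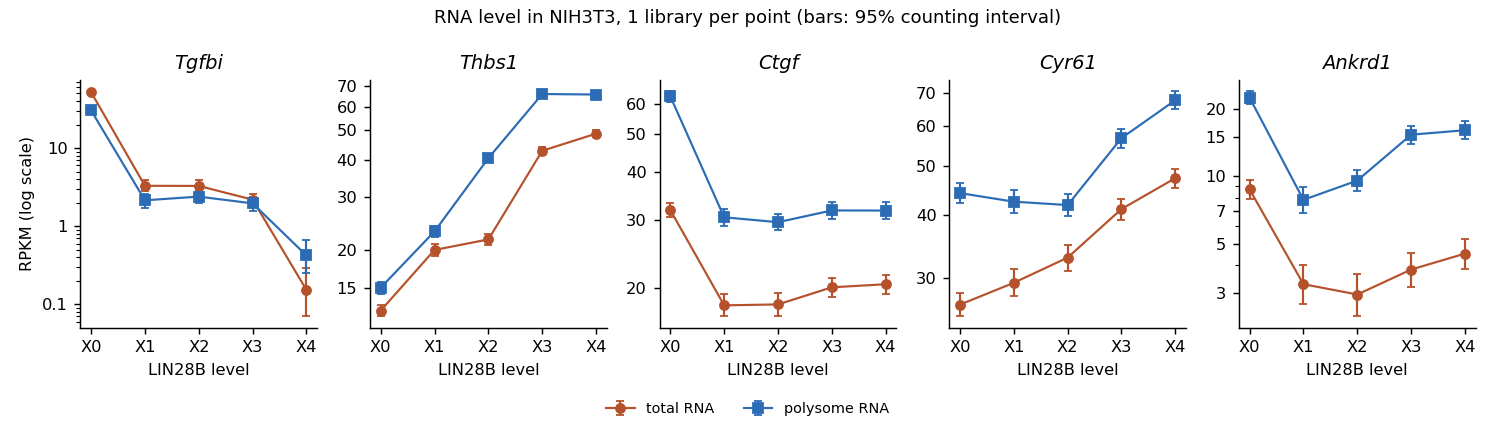
RPKM (log axis, a separate scale for each gene) of the 5 genes in NIH3T3 total RNA (circles) and polysome RNA (squares) against the LIN28B level, 1 library per point, with bars for the 95% counting interval. Tgfbi drops at X1 and again at X4, Thbs1 and Cyr61 end at their highest total RNA at X4, and Ctgf and Ankrd1 are highest at X0.

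RPKM is per length, so the genes can be set against each other. In total RNA at X0 the order was Tgfbi at 51.95 RPKM, Ctgf at 31.9, Cyr61 at 26.5, Thbs1 at 12.6 and Ankrd1 at 8.72, and no neighbours in it had overlapping counting intervals. At X4 it was Thbs1 at 48.8 RPKM, Cyr61 at 47.3, Ctgf at 20.5, Ankrd1 at 4.51 and Tgfbi at 0.153. There the intervals of Thbs1 and Cyr61 overlapped, so their order was not resolved. Tgfbi was last in the order at X4 and first in it at X0.

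The level differences were also set against those of the 10952 NIH3T3 genes that averaged 1 RPKM or more over the 10 libraries, on the log2(RPKM + 0.5) scale, which understates the change of low values. For total RNA the middle 90% of genes lay between -0.81 and 0.84 at X4 relative to X0. Tgfbi (-6.33) and Ankrd1 (-0.88) lay below that range, Thbs1 (1.91) above it, and Ctgf (-0.63) and Cyr61 (0.82) inside it. In polysome RNA the range was -0.79 to 0.90, with Tgfbi (-5.06) and Ctgf (-0.97) below it and Thbs1 (2.09) above it. Cyr61 at 0.61 and Ankrd1 at -0.47 lay inside. Tgfbi and Thbs1 were picked by their values across the levels, so their place outside these ranges follows from that choice.

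Ribosome occupancy, taken as polysome RPKM over total RPKM, compares the level of a messenger RNA between the fractions. RPKM scales each fraction to its own depth, so the ratio is relative to other genes and is not the share of molecules bound by ribosomes. For Tgfbi it read 0.583, 0.652, 0.730, 0.895 and 2.76 at X0, X1, X2, X3 and X4. The last value rests on so few reads that its counting interval runs from 1.18 to 6.97, against 0.550 to 0.619 at X0. Its denominator is the low total RNA at X4, a value by which Tgfbi was picked. That choice favours a high ratio at X4, so the gap from X0 is description only. With 0.5 RPKM added to each fraction the log2 occupancy of Tgfbi at X4 is 0.50 in place of 1.46. For Thbs1 occupancy read 1.19, 1.15, 1.86, 1.54 and 1.35, highest at X2. On the log2 scale X2 minus X0 was 0.64 for Thbs1, inside the middle 90% of all genes at X2, -0.61 to 1.21.

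Among the YAP targets of the set, Ankrd1 had the highest occupancy at every level, at 2.57, 2.38, 3.23, 4.00 and 3.56. Ctgf read 1.97, 1.69, 1.63, 1.58 and 1.55, lower at each successive level, although neighbouring intervals from X1 upward overlapped. Cyr61 read 1.67, 1.45, 1.27, 1.38 and 1.43, lowest at X2. On the log2 scale, X4 differed from X0 by 0.47 for Ankrd1 (0.16 to 0.77), by -0.34 for Ctgf (-0.48 to -0.21) and by -0.22 for Cyr61 (-0.35 to -0.09). The median of all genes was -0.08, with the middle 90% between -0.56 and 0.79, on the scale with 0.5 RPKM added. On that scale X4 minus X0 was 1.27 for Tgfbi, above the range, and -0.35 to 0.41 for the other genes of the set, inside it. Without the added 0.5 RPKM the Tgfbi difference was 2.24 (1.08 to 3.40). Both Tgfbi differences rest on the low total RNA at X4 by which the gene was picked.

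**Figure D2:**
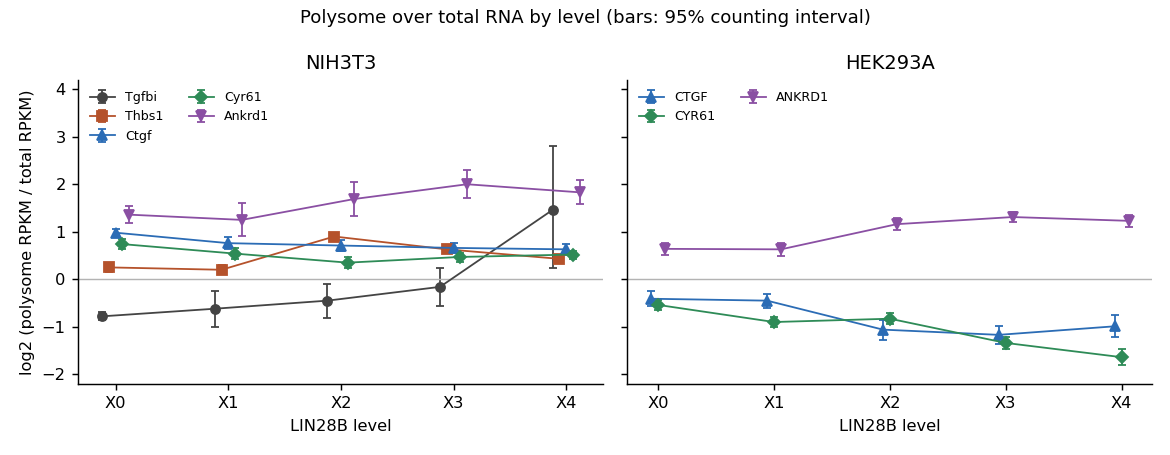
Log2 of polysome over total RPKM (vertical axis) at each LIN28B level for the 5 genes in NIH3T3 (left) and the 3 human counterparts measured in HEK293A (right), with bars for the 95% counting interval. ANKRD1 lies above CTGF and CYR61 in both lines, and in HEK293A CTGF and CYR61 end lower at X4 than at X0.

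Likeness to the 5 genes was measured as the Pearson correlation of log2(RPKM + 0.5) over the 10 NIH3T3 libraries, among 7053 genes averaging 5 RPKM or more. The 10 points share cultures between fractions, and X0 weighs heavily wherever it stands apart. Closest to Tgfbi were Rsph3b (r = 0.961), Rsph3a (0.949), Psrc1 (0.945), Cyba (0.926) and Trak1 (0.919). Of these Cyba alone was lower at X4 by a like amount, 111-fold below X0 in total RNA on 5 reads at X4, while the others were 1.59 to 3.86-fold below it. Rsph3a and Rsph3b are near-identical copies whose reads may have been split between them. Closest to Thbs1 were Nid2 (0.966) and Nid1 (0.956), both basement membrane nidogens, then Plac1 (0.934), Tagln (0.930) and Slirp (0.920). Tagln, a smooth muscle actin-binding protein and a TGF-beta target, read 18.3, 36.1, 51.1, 58.0 and 84.0 RPKM in total RNA from X0 to X4.

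Closest to Ctgf were Sf3b2 (0.989), Noc2l (0.987) and Kat7 (0.987), which act in the nucleus. Closest to Cyr61 were Myl9 (0.977), a myosin light chain of the contractile apparatus, Tinagl1 (0.971) and Slc1a5 (0.964). For Ankrd1 they were P4ha1 (0.987), Vcam1 (0.985) and Gm6665 (0.984). Within the set, the correlation was -0.83 between Tgfbi and Thbs1, 0.92 between Ctgf and Ankrd1 and 0.81 between Thbs1 and Cyr61. Ctgf and Cyr61, of 1 protein family, correlated at 0.32. These correlations describe 10 libraries and carry no test.

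Among other YAP and TAZ targets in NIH3T3 total RNA, no slope over the level could be told from scatter, as for every gene of the table. With limma and Benjamini-Hochberg adjustment, 0 of 15 tested YAP target genes passed the threshold of 0.05 for a slope of total RNA over the level rank. The background was 0% of 10348 genes higher and 0% lower, with 1136 genes at an unadjusted p under 0.05 and 0 calls by edgeR on recovered reads. The median slope of the 15 was 0.06 per level, against -0.00 for all genes. Axl, a receptor tyrosine kinase, read 156 RPKM at X4 against 104 at X0 (slope 0.14, adjusted p = 0.371), and Amotl2, an angiomotin that holds YAP back, 38.9 against 26.1 (0.14, adjusted p = 0.452). Lats2, the Hippo kinase that YAP itself induces, read 1.94 RPKM at X4 against 2.89 at X0 (-0.11, adjusted p = 0.569).

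A contrast of X1 to X4 against X0 called more genes, 11.5% of 10348 higher and 10.2% lower. X0 is 1 library there, so its level and anything particular to that library cannot be told apart. Among the 15 YAP targets 1 was higher and 4 were lower in X1 to X4, which is 6.67% and 26.7%. The 4 lower ones, named after their values were seen, were Myof (-1.12 ± 0.23 log2, SE, adjusted p = 0.0227), Dock5 (-1.10), Gadd45a (-0.99) and Ptpn14 (-0.82). Myof encodes the membrane protein myoferlin, and its total RNA read 7.71, 5.71, 8.47 and 9.11 RPKM at X1, X2, X3 and X4 against 17.1 RPKM at X0. The 1 higher gene was the secreted matrix protein Ccdc80 (0.94 ± 0.17, adjusted p = 0.0153). Of the remaining 4 genes of the 19, Igfbp3 and Nt5e were at or near 0 and Tgfb2 and Rbms3 had a mean under 1 RPKM, so they were not tested.

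Of 18 tested genes of the Hippo pathway itself, 0 passed for the slope, and 5 were lower and 1 was higher in X1 to X4 than in X0, which is 27.8% lower against the background of 10.2%. The lower ones were Mob1a (-1.16), Tead1 (-0.91), Amotl1 (-0.82), Sav1 (-0.74) and Wwc2 (-0.64), and the higher one was Tead3 (0.42). Mob1a and Sav1 are scaffolds of the kinase core, and Tead1 is a DNA-binding partner of YAP. Yap1 itself read 6.14 RPKM at X4 against 7.27 at X0 (adjusted p of X1 to X4 against X0 = 0.509). Wwtr1, the gene of TAZ, read 16.1 RPKM at X4 against 21.1 at X0 (adjusted p = 0.206).

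TGF-beta targets moved in both directions. Of 21 tested, 0 passed for the slope, and the median slope was -0.02 per level. In X1 to X4 against X0, 5 were higher (23.8%) and 4 were lower (19.0%), set against backgrounds of 11.5% and 10.2%. The higher ones were Tagln (1.56 ± 0.38, adjusted p = 0.0328), Col1a1 (1.08), the collagen cross-linking enzyme Lox (0.85), the inhibitory SMAD Smad6 (0.71) and the repressor Snai1 (0.59). The lower ones were Bhlhe40 (-1.22 ± 0.16, adjusted p = 0.00757), Smurf2 (-1.12), Klf10 (-0.83) and Smurf1 (-0.55). Smurf1 and Smurf2 are ubiquitin ligases that act on TGF-beta signalling, and Klf10 is an early TGF-beta response factor.

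Smad7, the feedback inhibitor, read 1.24 RPKM in total RNA at X4 against 1.65 at X0 (adjusted p of X1 to X4 against X0 = 0.201), and Skil had a mean under 1 RPKM and was not tested. Acta2, smooth muscle actin, read 112, 107, 158, 314 and 576 RPKM from X0 to X4, a climb from X2 upward that neither fit called (adjusted p = 0.327 for the slope and 0.358 for X1 to X4 against X0).

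Among the pathway's own genes 11 were tested and 0 passed for the slope. In X1 to X4 against X0, 3 were higher (27.3%) and 1 was lower (9.09%), set against 11.5% and 10.2% of all genes. Ltbp4, a latent TGF-beta binding protein, was higher in X1 to X4 (1.45 ± 0.13, adjusted p = 0.00280), at 5.95 to 6.46 RPKM against 1.92 RPKM in X0. Smad3 (0.58) and Tgfbr2 (0.51), a signal transducer and a receptor, were higher as well, and Smad4 (-0.82) was lower. The ligand Tgfb1 held at 25.2 to 27.9 RPKM in X1 to X4 against 25.3 RPKM in X0 (adjusted p = 0.603). The receptor Tgfbr1 had a mean of total RNA under 1 RPKM and was not tested in that fraction.

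Close relatives and receptors of the 5 genes were compared in the same contrast of X1 to X4 against X0. X0 is 1 library there, so level and library cannot be told apart. Of 13 close relatives 4 had a mean of at least 1 RPKM in total RNA and were tested. Wisp2, a CCN family member like Ctgf and Cyr61, read 43.7, 50.5, 40.4 and 38.8 RPKM in total RNA at X1, X2, X3 and X4 against 9.64 RPKM at X0 (2.11 ± 0.16, adjusted p = 0.00193). Thbs2, the nearest relative of Thbs1, was higher too (0.73 ± 0.18, adjusted p = 0.0360), at 28.1 to 38.2 RPKM against 18.9 RPKM. Thbs3 read 1.87 RPKM at X4 against 1.76 at X0 (adjusted p = 0.992) and Wisp1 4.77 against 4.24 (adjusted p = 0.496). Postn, the fasciclin-domain relative of Tgfbi, read at most 0.0919 RPKM in total RNA of any level.

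Of 8 tested receptors and partners that bind thrombospondin 1, Tgfbi or CCN proteins, 4 were higher in X1 to X4 than in X0 (against 11.5% of all genes) and 0 were lower. These were the integrin subunits Itgb3 (1.18), Itgb5 (1.02) and Itga5 (0.97) and the chaperone and cell surface protein Calr (1.14). Itgb5 read 154 to 174 RPKM against 81.5 RPKM. Cd47, a receptor of thrombospondin 1, read 7.60 RPKM at X4 against 8.15 at X0 (adjusted p = 0.275), and Cd36, another, was at 0 in every library.

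**Figure D3:**
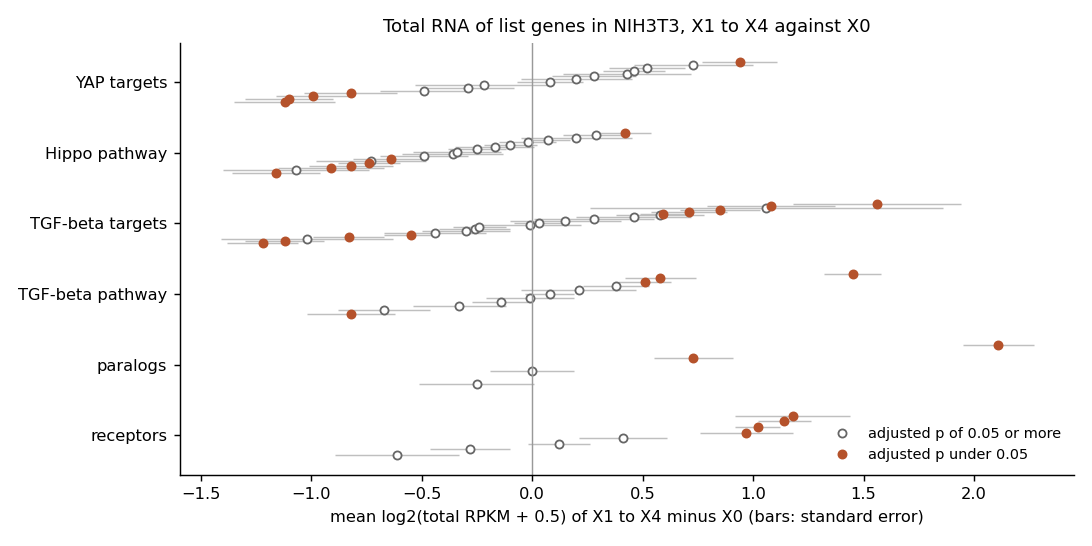
Each point is 1 list gene in NIH3T3 total RNA, its horizontal position the mean log2(RPKM + 0.5) of X1 to X4 minus that of X0, with bars for the standard error, and filled points have an adjusted p under 0.05 by limma. X0 is 1 library, and points lie on both sides of 0 in every list. The median was -0.35 for Hippo pathway genes, 0.08 for YAP targets, 0.03 for TGF-beta targets and 0.69 for receptors, against -0.00 for all genes. Amotl2 and Lats2 are drawn among both YAP targets and Hippo pathway genes.

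For ribosome occupancy in NIH3T3 the slope passed in 0 of 15 YAP targets, 0 of 22 TGF-beta targets and in none of the other lists. The background was 0% of 10952 genes in either direction, with 552 at an unadjusted p under 0.05 and 0 calls by edgeR. Median slopes were 0.04 for YAP targets and -0.07 for TGF-beta targets, against -0.01 for all genes.

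In HEK293A none of the 3 measured counterparts passed the test for a slope of total RNA over the LIN28B level. CTGF read 18.1, 19.2, 19.4, 16.8 and 13.5 RPKM at X0, X1, X2, X3 and X4 (slope -0.10 ± 0.03 per level, limma adjusted p = 0.166). CYR61 read 37.8, 47.0, 47.9, 42.5 and 33.5 RPKM, highest at X1 and X2 (-0.05 ± 0.05, adjusted p = 0.616). ANKRD1 read 21.5, 18.7, 19.4, 16.5 and 15.7 RPKM (-0.11 ± 0.02, adjusted p = 0.0511). That is 0 of 3, where 1.48% of 11342 genes passed as higher and 0.758% as lower.

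Polysome RNA separated the 3 genes. CTGF read 13.7, 14.1, 9.34, 7.50 and 6.81 RPKM in polysome RNA from X0 to X4, lower at X2 and beyond than at X0. CYR61 read 26.1, 25.2, 27.0, 16.8 and 10.8 RPKM, lower at X3 and X4. ANKRD1 read 33.6, 29.1, 43.4, 40.8 and 36.7 RPKM, highest at X2. X4 was 2.42-fold below X0 for CYR61 (2.11 to 2.77) and 2.01-fold below it for CTGF (1.67 to 2.41). For ANKRD1 the factor was 1.09 (0.991 to 1.21). Lower polysome RNA at X4 was common in this line. On the log2(RPKM + 0.5) scale, X4 minus X0 had a median of -0.30 and a lower quartile of -0.95 over 11125 genes. Their middle range, taken as for NIH3T3, ran from -1.47 to 1.28. CTGF (-0.95), CYR61 (-1.24) and ANKRD1 (0.13) all lay inside it.

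**Figure D4:**
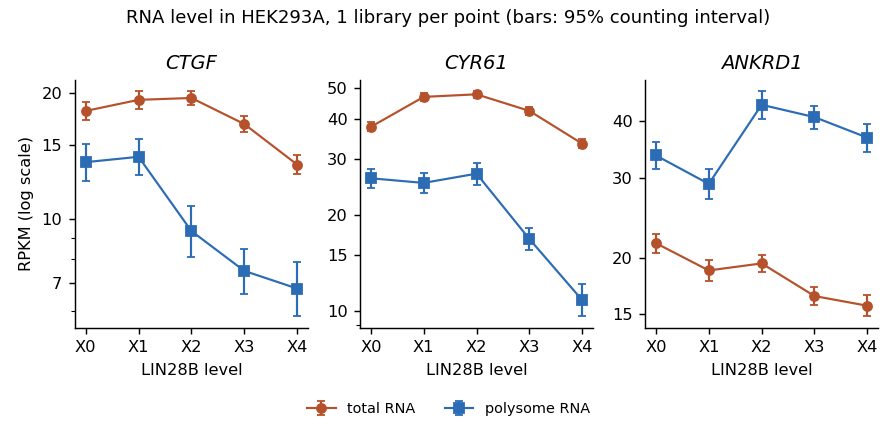
RPKM (log axis, a separate scale for each gene) of CTGF, CYR61 and ANKRD1 in HEK293A total RNA (circles) and polysome RNA (squares) against the LIN28B level, 1 library per point, with bars for the 95% counting interval. Polysome RNA of CTGF lies further below total RNA from X2 on, and that of CYR61 lies furthest below it at X3 and X4, while that of ANKRD1 stays above total RNA.

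Occupancy of CTGF and CYR61 fell with the LIN28B level and that of ANKRD1 rose. CTGF occupancy read 0.754, 0.731, 0.481, 0.445 and 0.505 from X0 to X4 (log2 slope -0.18 ± 0.06 per level, adjusted p = 0.0317). CYR61 occupancy read 0.689, 0.536, 0.563, 0.395 and 0.322 (-0.26 ± 0.05, adjusted p = 0.00455). ANKRD1 occupancy read 1.56, 1.55, 2.23, 2.48 and 2.34 (0.18 ± 0.06, adjusted p = 0.0176). Against a background of 39.0% of 11125 genes lower and 19.1% higher, calls of this kind were common. With TMM centring of the libraries 3115 genes passed as lower and 3124 as higher, in place of 4341 and 2124. The 3 calls did not hold equally. CTGF lost its call under TMM centring (adjusted p = 0.162), quantile normalization (0.139) and edgeR on recovered reads (0.158), and without X0 (0.234), X1 (0.0560), X3 (0.1001) or X4 (0.0841). Its slope was -0.11 with TMM centring and between -0.15 and -0.27 with those levels left out. CYR61 lost its call without X0 (slope -0.26, adjusted p = 0.0608) or X4 (-0.23, adjusted p = 0.0953). ANKRD1 lost its call without X0 (0.19, adjusted p = 0.140), X3 (0.16, adjusted p = 0.0544) or X4 (0.25, adjusted p = 0.0841). CYR61 and ANKRD1 passed under both scalings and edgeR. For X1 to X4 against X0 none of the 3 passed, with adjusted p = 0.399 for CTGF, 0.323 for CYR61 and 0.374 for ANKRD1, and 2 genes passed in the whole table. Without X4, limma called 0 genes of the whole table, with 4492 at an unadjusted p under 0.05.

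Set beside each other, the lines gave Ankrd1 the same sign at the upper levels. Log2 occupancy at X2, X3 and X4 minus X0 was 0.33, 0.64 and 0.47 for Ankrd1 in NIH3T3, and 0.52, 0.67 and 0.59 for ANKRD1 in HEK293A. In NIH3T3 the counting interval at X2 ran from -0.06 to 0.72. With 0.5 RPKM added, Ankrd1 in NIH3T3 (0.23, 0.56 and 0.41) stayed below the 95th percentile of all genes (1.21, 1.27 and 0.79). ANKRD1 in HEK293A (0.51, 0.65 and 0.57) was above it at X2 (0.46) and below it at X3 and X4 (0.89 and 1.12). For the CCN genes the differences at X4 were -0.34 (Ctgf) and -0.22 (Cyr61) in NIH3T3, and -0.58 (CTGF) and -1.10 (CYR61) in HEK293A. The difference between lines was not tested.

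In HEK293A total RNA 0 of 13 YAP targets and 0 of 20 Hippo pathway genes passed for the slope, where 1.48% of all genes rose and 0.758% fell. Of 17 TGF-beta targets 1 rose and 1 fell, 5.88% each. Calls among them came to 0 without X0, 1 without X3 and 7 without X4, where all 11342 genes gave 3, 119 and 544. ACTA2 rose (0.25 ± 0.03 per level, adjusted p = 0.00793) and LOX fell (-0.16 ± 0.03, adjusted p = 0.0284). ACTA2 read 4.46, 6.04, 6.66, 7.41 and 10.4 RPKM from X0 to X4. The co-receptor TGFBR3 rose (0.18, adjusted p = 0.0295), the only call among 11 pathway genes. Of 7 receptors and partners 2 rose (28.6%) and 0 fell. These were LRP1 (0.33, adjusted p = 0.00477), an endocytic receptor of thrombospondin 1, and the integrin subunit ITGAV (0.12, adjusted p = 0.0411).

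For occupancy in HEK293A, 6 of 12 YAP targets fell and 0 rose, against 39.0% of all genes lower and 19.1% higher. FJX1 (-0.34), AMOTL2 (-0.32), GADD45A (-0.26) and FOXF2 (-0.26) had the largest slopes. AMOTL2 polysome RNA read 12.3, 10.2, 11.1, 6.34 and 4.27 RPKM from X0 to X4, while its total RNA ended at 14.7 RPKM at X4 against 16.9 RPKM at X0. LATS2 did not pass (-0.05, adjusted p = 0.374). Of 20 Hippo pathway genes 9 fell (45.0%) and 2 rose (10.0%), with AMOTL2, NF2 (-0.32), WWC1 (-0.30) and TEAD4 (-0.30) the largest falls and the scaffolds MOB1B (0.25) and MOB1A (0.17) the rises. YAP1 read -0.06 (adjusted p = 0.386) and WWTR1 fell (-0.14, adjusted p = 0.0456).

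Among 16 TGF-beta targets 11 fell (68.8%) and 1 rose (6.25%), against 39.0% and 19.1% of 11125 genes. JUNB (-0.35), the co-repressor SKI (-0.32), SMAD6 (-0.30) and BAMBI (-0.29) had the largest slopes, and LOX (0.14) was the 1 that rose. ACTA2, whose total RNA rose, fell in occupancy (-0.29, adjusted p = 0.00319). SMAD7 fell (-0.21, adjusted p = 0.0141), while SKIL did not pass (0.16, adjusted p = 0.117). With TMM centring the counts were 5 of 12 falls for YAP targets and 8 of 16 for TGF-beta targets, where 3115 of 11125 genes fell. Without X0 they were 3 and 4, where 1511 of 11125 genes fell. Without X4 both were 0, as for the whole table. Of 11 pathway genes 6 fell (54.5%, against 39.0% of all genes), TGFB1 (-0.29), LTBP3 (-0.28), LTBP4 (-0.27) and SMAD3 (-0.24) foremost. TGFBR2 fell (-0.17, adjusted p = 0.0211) and TGFBR1 did not pass (0.07, adjusted p = 0.385). Of 7 receptors and partners 4 fell (57.1%) and 2 rose (28.6%), against 39.0% and 19.1% of all genes. LRP1 (-0.34), ITGA5 (-0.33), ITGB5 (-0.33) and CALR (-0.29) fell, and CD47 (0.19) and ITGB1 (0.18) rose.

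The let-7a given to HEK293A X0 cells is the microRNA whose maturation LIN28B blocks, printed here with its seed, bases 2 to 8, in capitals.
let-7a: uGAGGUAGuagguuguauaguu
CYR61 was higher in transfected than in untransfected X0 cells, at 59.2 against 37.8 RPKM in total RNA (a factor of 1.56, 1.50 to 1.63) and at 61.3 against 26.1 RPKM in polysome RNA (2.35, 2.15 to 2.58). ANKRD1 read 26.9 against 21.5 RPKM in total RNA (1.25, 1.17 to 1.33) and 38.7 against 33.6 RPKM in polysome RNA (1.15, 1.04 to 1.28). CTGF read 18.5 against 18.1 RPKM in total RNA (1.02, 0.952 to 1.09) and 14.7 against 13.7 RPKM in polysome RNA (1.08, 0.917 to 1.26). The middle 90% of all genes lay between 0.609 and 1.72 in total RNA and between 0.498 and 2.58 in polysome RNA, so all 3 genes were inside it. There is 1 library on each side, the tables were normalized separately, and no test was made.

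TGFBI and THBS1 could be read in the transfected cells alone, where TGFBI held 0.0645 RPKM in total RNA and 0.253 in polysome RNA, and THBS1 0.0801 and 0.0973 RPKM. Small RNA libraries of HEK293A cells named KO and X3 were labelled ip or total, and both kinds are given here. The 13 let-7 features held 2 to 5 counts in each of the 4 transfected libraries, of 73083 to 140139 counts per library. They held 0 counts in each of the 4 untransfected ones, of 125904 to 172995 counts per library. In the shallowest of these, 0 counts allow a share of up to 0.00238%. The transfected X3 library labelled total had a share of 0.0023%, below that limit. The other transfected libraries had 0.00313% to 0.00547%. Counts this low do not separate every transfected library from the untransfected ones, and no test was made.

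**Figure D5:**
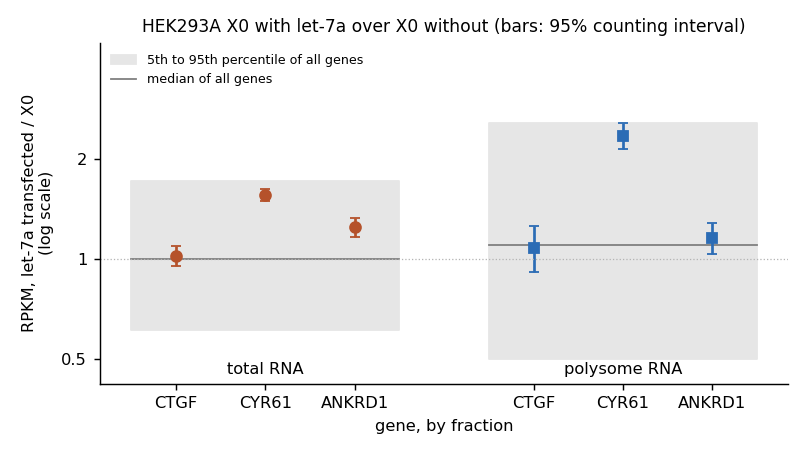
RPKM in let-7a transfected HEK293A X0 cells over that in untransfected X0 cells (log axis) for CTGF, CYR61 and ANKRD1 in total and polysome RNA, with bars for the 95% counting interval, a grey band for the 5th to 95th percentile of all genes and a line for their median. CYR61 lies above 1 in both fractions and inside the band.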

How the data were processed

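RPKM values, reads scaled by gene length and library depth, were deposited by the authors for polysome and total RNA, in 1 table for each line and 1 for the let-7a libraries. The authors' small RNA tables hold raw counts. Per the labels' protocols RNA was taken up in Trizol and libraries were made from polyA RNA. The submitters' processing notes name STAR, cutadapt, mm10 and hg19, with no versions. The sources used here do not give the use of each, the counter, its strand setting, the annotation or any pooling of replicates. The HEK293A table was filtered on low values before deposit: each gene in it has at least 1 RPKM in the total RNA of each level.

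RPKM values are whole multiples of a step, and reads were recovered from them within 0.02 of a whole number, for 100% of genes above 0 in the NIH3T3 and HEK293A tables and 99.9% in the let-7a libraries. They gave depths and 95% counting intervals (exact Clopper-Pearson for ratios, exact Poisson for levels, a normal approximation for differences of occupancy). Intervals cover counting error only.

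Lines over the level rank (0 to 4) were fitted to log2(total RPKM + 0.5) and to occupancy, log2(polysome RPKM + 0.5) minus log2(total RPKM + 0.5), with limma 3.58.1 in R 4.3.3, over genes averaging 1 RPKM or more, adjusted by Benjamini-Hochberg over all of them with a threshold of 0.05. With 1 library per level, p-values measure scatter around the line or, for X1 to X4 against X0, among X1 to X4. Alternatives were other pseudocounts and filters, TMM and quantile scaling, edgeR 4.0.16 on recovered reads, X1 to X4 against X0, and leaving out each level.

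The members and lists were chosen with earlier results of these data known. Named by rule were the 5 genes, up to 4 called genes of largest slope per list and trend, 10 fixed regulators and targets, 1 of which is not reported here, and the 5 (Tgfbi, Thbs1) or 3 genes most like each member. Genes named for the contrast of X1 to X4 against X0, all others outside that rule, and the largest falls were chosen after their values were seen. Promoters and let-7a come from RefSeq tables on GRCh38.p14, matched by symbol for 4 of the 5 genes. Mouse sequences were not used here, and 1 gene has no entry.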

Additional observations from a re-analysis of the deposited data

How the results depend on the processing

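With 1 library per level, reads set the counting error only, and the spread between cultures is not measured for any gene. Low values such as Tgfbi at X4 have the widest counting intervals for their size. Occupancy pairs the total and polysome libraries of a level. No paired analysis was possible because, between levels, there is 1 library per fraction and the labels give no second replicate number to block on. In NIH3T3 total RNA the slope called 0 genes, while X1 to X4 against X0 called 2241, with 5 YAP targets in place of 0 and 9 TGF-beta targets in place of 0. Leaving out 1 level gave 0 to 22 genes and 0 to 2 TGF-beta targets, the highest without X0. In HEK293A total RNA the 254 calls became 117 among genes averaging 5 RPKM or more, 3 for X1 to X4 against X0, and 3 (without X0) to 544 (without X4) with 1 level left out, with 119 without X3. There YAP targets had 0 to 1 call, and the 2 calls among TGF-beta targets became 1 with that filter, 4 with edgeR, 0 for X1 to X4 against X0 and 0 to 7 with 1 level left out. In HEK293A occupancy the 6465 calls became 2 for X1 to X4 against X0 and 0 (without X4) to 7231 (without X2) with 1 level left out, with 1674 without X0. YAP targets there had 0 to 7 in place of 6 and TGF-beta targets 0 to 14 in place of 12, both 0 for X1 to X4 against X0. With a pseudocount of 0.1 the log2 difference of X4 from X0 for Tgfbi was -7.69 in total RNA and -5.86 in polysome RNA, in place of -6.33 and -5.06. Quantile normalization gave -0.78 for Ctgf and 0.69 for Cyr61 in total RNA, in place of -0.63 and 0.82. TMM centring gave -0.97 for CYR61 and 0.40 for ANKRD1 in HEK293A polysome RNA, in place of -1.24 and 0.13. The cause of these shifts was not tested.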
